A study of Mus musculus with 6 samples.

Results

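Endothelial cells line blood and lymph vessels. They are held together by a junction built on vascular endothelial cadherin, they read vascular endothelial growth factors and angiopoietins through receptor tyrosine kinases, and their identity is kept by transcription factors of the ETS and SOXF families. In white fat, a dense capillary bed lies against the adipocytes and hands fatty acids and hormones across its wall, and small numbers of venules, arterioles and lymphatic vessels drain and feed it.

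The genes described here are a list of 39 markers of endothelial identity, of capillaries, of venules and of lymphatic endothelium, taken by name out of 30701 genes that the array annotation pairs with a single symbol. Of the 39 genes, 38 were measured, each by 1 probe set. Egfl7, which encodes a secreted endothelial protein, was not analysed here because its probe set also carries the symbol of the microRNA gene in one of its introns, Mir126a. Male C57BL/6 mice, 2 months old, gave RNA of the inguinal subcutaneous white depot, read on 6 whole-transcript microarrays with 1 mouse each. The 3 KO mice carried floxed Tfg alleles and Adipoq-ERT2Cre, a recombinase that tamoxifen activates and that the adiponectin promoter drives in adipocytes. The 3 WT mice carried the same floxed alleles and no Cre. Tamoxifen was injected into the peritoneum of both groups for 5 days, with RNA prepared 2 weeks after that. Endothelial cells are not the cells in which this promoter drives the Cre, and in RNA of whole fat more cells of a type cannot be told apart from more RNA in each cell.

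Values are log2 signals as deposited, differences are KO minus WT, and n = 3 arrays per group throughout. As deposited, the targeted gene did not read lower on the arrays labelled KO. Tfg read 7.99, 8.21 and 8.03 on these, against 7.97, 7.94 and 7.91 on the WT-labelled arrays, and the difference did not pass (adjusted p = 0.345 in limma). The exons read by its probe set are not known here, so the labels could be checked in part alone, and the text speaks of KO-labelled and WT-labelled arrays. The KO-labelled array 2 stood apart, with a correlation across probe sets of 0.96 and 0.965 to the other KO-labelled arrays, which correlated at 0.986 with each other. Over all 65956 probe sets the median change came to -0.37, so that every change below is 0.37 larger when taken against the median probe set. The mean of 13 measured housekeeping genes was 9.85, 10.63 and 9.95 on the KO-labelled arrays, against 8.78, 8.92 and 8.56 on the WT-labelled arrays, a difference of 1.39. Single genes among them changed by -0.28 (Tfrc) to 4.83 (B2m), with a median of 1.18. Taken against the housekeeping mean the Tfg change was -1.25, where the median probe set stood at -1.76. Against the median probe set the Tfg change was 0.50. The sign of the Tfg change thus depends on the scaling, but on neither did Tfg fall more than the median probe set. No detection calls were available, and 1082 olfactory receptor genes, a class with no known role in fat, had medians of 6.32 to 6.87 on the KO-labelled and 7.39 to 7.61 on the WT-labelled arrays. Of the 38 endothelial genes 33 had a WT-labelled mean below the highest of these WT-labelled medians, all 18 that did not pass and 15 of the 20 that rose, while Eng, Mmrn2, Adgrf5, S1pr1 and Cav1 lay above it. On the KO-labelled arrays 9 of the 18, and 0 of the 20, had a mean below the highest median of that class. For genes that read so low in a group, the signal there was not shown to be above background, and a difference from it, or its lack, is one between signals and not a measured difference in RNA.

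The endothelial genes divided into about equal numbers that rose and that did not pass. Of the 38 measured genes 20 rose and 0 fell at an adjusted p under 0.05 (limma, Benjamini-Hochberg over all probe sets). That is 52.6% called higher, where 5.32% of all probe sets and 10.7% of protein-coding genes with 1 symbol were called higher, and 15.6% and 10.2% were called lower. All 3 KO-labelled values lay above all 3 WT-labelled values in 22 genes (11.1% of all probe sets, 23.3% of protein-coding genes) and below them in 3 genes (44.9% and 41.0%). An unadjusted p under 0.05 was reached by 22 genes in the higher direction, against 9.12% of all probe sets and 18.3% of protein-coding genes. Their median change was 0.62, beside -0.18 for protein-coding genes with 1 symbol. Of the 13 measured housekeeping genes 7 rose (53.8%), with a median change of 1.18, and of 11 adipocyte markers 81.8% rose, shares as large as that of the endothelial genes. Of the 20 that rose, 19 encode proteins of the junction, the surface, the receptors or the caveolae and water channels of endothelium and 1 a transcription factor, with the cadherin gene Cdh5, the adhesion receptor gene Adgrf5, the water channel gene Aqp1 and the caveolin gene Cav1 changed by more than 3 on the log2 scale. None of the 3 genes of venule adhesion and chemokine binding and none of the 3 lymphatic genes passed.

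These counts rest on the scaling and on most of the single arrays. When each array was centred on its housekeeping mean, 7 of the 20 calls were kept, 9 of the 20 genes turned to a negative change, and 18 of the 38 genes were called lower. Without KO-labelled array 3, or without WT-labelled array 1, 2 or 3, limma called 0 of the 38 genes and 0 of all probe sets. In these fits 21, 21, 21 and 23 of the 38 had an unadjusted p under 0.05, of which 20, 20, 20 and 21 were higher. Of all 65956 probe sets 28697, 23757, 25102 and 21579 had such a p in either direction. Scaling also moved the split over all probe sets, with 3509 higher and 10282 lower as deposited, 4032 and 2212 after quantile normalization, 5146 and 3259 after centring on the array median and 498 and 60874 after centring on the housekeeping mean.

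**Figure D1:**
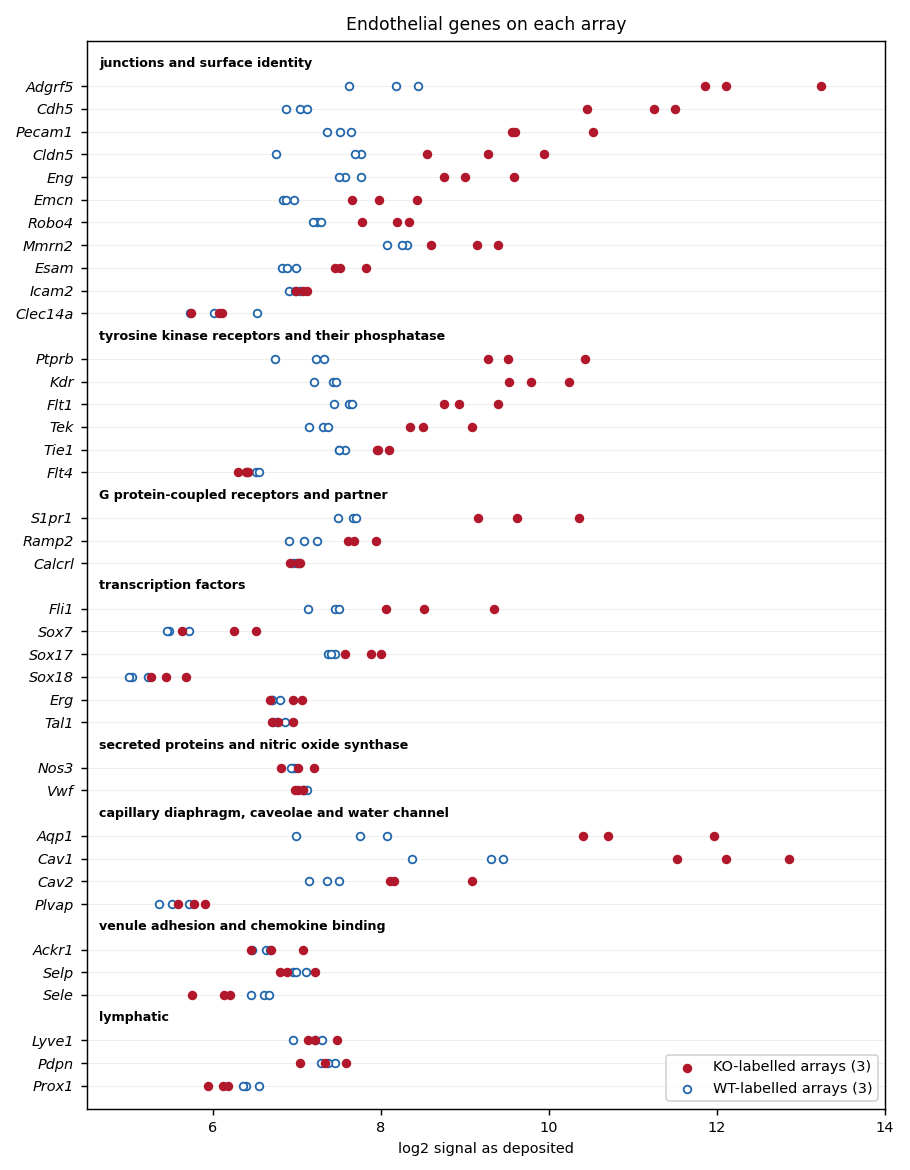
Log2 signal of the 38 measured endothelial genes on each array, grouped by role. Filled points are the 3 KO-labelled arrays and open points the 3 WT-labelled arrays. In 22 genes every filled point lies right of every open point, and in 3 genes every filled point lies left of them.

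Genes of the junction and the endothelial surface held the 2 steepest changes. Of 11 measured genes 9 rose and 0 fell, with a median change of 1.13. Cdh5 encodes vascular endothelial cadherin, the adhesion protein of the junction between endothelial cells. It read 11.25, 11.50 and 10.45 on the KO-labelled arrays, against 7.04, 7.12 and 6.87 on the WT-labelled arrays. The lowest KO-labelled value lay more than 3 above the highest WT-labelled one, and the change was 4.06 ± 0.28 (SE, adjusted p = 0.0346 in limma). Adgrf5, an adhesion G protein-coupled receptor gene of capillaries, read 12.11, 13.24 and 11.86, against 8.18, 8.44 and 7.62 on the WT-labelled arrays. Its change was 4.32 ± 0.41 (SE), or 20-fold, with KO-labelled array 2 the brightest.

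Pecam1, Cldn5 and Eng rose with them. Pecam1, which encodes the adhesion molecule CD31, read 9.60, 10.52 and 9.56 on the KO-labelled arrays, against 7.65, 7.52 and 7.36 on the WT-labelled arrays. Cldn5, the tight junction claudin of endothelium, read 9.28, 9.94 and 8.55, against 7.77, 7.69 and 6.75 on the WT-labelled arrays. The Cldn5 values were spread in both groups, with an SD of 0.70 on the KO-labelled and 0.57 on the WT-labelled arrays, and its change was 1.85 ± 0.43 (SE, adjusted p = 0.0404 in limma). Eng, the endoglin coreceptor for bone morphogenetic proteins, read 9.0, 9.59 and 8.75, against 7.76, 7.58 and 7.5 on the WT-labelled arrays. Groups did not overlap in any of these genes, and leaving out KO-labelled array 1 or 2 lost the call of Cldn5 but not those of Pecam1 and Eng. Centring on the housekeeping mean left Pecam1 called at 0.99, while Cldn5 and Eng, at 0.46 and 0.11, lost their calls.

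Smaller rises were measured for the sialomucin gene Emcn and for Robo4, Mmrn2 and Esam, each of them negative after centring on the housekeeping mean (-0.26, -0.53, -0.55 and -0.69). Emcn read 7.98, 8.43 and 7.66 on the KO-labelled arrays, against 6.84, 6.97 and 6.87 on the WT-labelled arrays. Robo4, a roundabout receptor that stabilizes vessels, read 8.19, 8.34 and 7.78, against 7.24, 7.19 and 7.29 on the WT-labelled arrays. Mmrn2, an extracellular matrix protein gene of endothelium, read 9.15, 9.40 and 8.60, against 8.31, 8.07 and 8.25 on the WT-labelled arrays. Esam, an adhesion molecule gene of endothelial junctions, read 7.45, 7.83 and 7.51, against 6.83, 6.88 and 6.99 on the WT-labelled arrays. In all 4 genes the groups stood apart, by at least 0.29 in Mmrn2, whose adjusted p of 0.0475 in limma was the nearest to the threshold among the 20 calls. Its call was lost without KO-labelled array 1 or 2, after quantile normalization, with trend in the variance prior and with array weights. Icam2, an adhesion molecule gene, overlapped between the groups, with means of 7.06 ± 0.07 on the KO-labelled and 6.98 ± 0.07 on the WT-labelled arrays (SD). So did Clec14a, a C-type lectin gene that binds Mmrn2 protein, with 5.97 ± 0.20 on the KO-labelled and 6.09 ± 0.41 on the WT-labelled arrays (SD).

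Of the receptor tyrosine kinases of the vessel wall and their phosphatase, all but the lymphatic receptor gene Flt4 rose. On the WT-labelled arrays every one of these genes had a mean below the highest olfactory receptor median of 7.61, from 7.57 for Flt1 to 6.49 for Flt4. The rises thus also start from signals not shown to be above background. On the KO-labelled arrays only Flt4, with a mean of 6.37, lay below the highest such median, 6.87. Of 6 measured genes 5 rose and 0 fell, with a median change of 1.41. Kdr encodes the main signalling receptor for vascular endothelial growth factor A. It read 9.52, 10.24 and 9.79 on the KO-labelled arrays, against 7.43, 7.47 and 7.21 on the WT-labelled arrays, a change of 2.48 ± 0.21 (SE, adjusted p = 0.0346 in limma). Flt1, which binds the same ligand and restrains it, read 8.75, 9.40 and 8.93, against 7.62, 7.66 and 7.44 on the WT-labelled arrays. The gap between the groups was 1.09 for Flt1 and 2.05 for Kdr. Centring on the housekeeping mean left Kdr called at 1.09, while Flt1, at 0.06, lost its call. Flt4, the receptor for growth factors C and D on lymphatic endothelium, read 6.40, 6.42 and 6.30, against 6.52, 6.41 and 6.55 on the WT-labelled arrays, and these groups overlapped (adjusted p = 0.382 in limma).

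Tek and Tie1 form the angiopoietin receptor pair, and Ptprb is the phosphatase that restrains Tek. Tek read 8.50, 9.09 and 8.35 on the KO-labelled arrays, against 7.31, 7.37 and 7.15 on the WT-labelled arrays. Tie1 read 8.10, 7.96 and 7.97, against 7.5, 7.57 and 7.5 on the WT-labelled arrays. Ptprb read 9.28, 10.43 and 9.51, against 7.23, 7.32 and 6.74 on the WT-labelled arrays. All 3 genes stood apart between the groups, and the changes were 1.37 ± 0.21 for Tek, 0.49 ± 0.11 for Tie1 and 2.64 ± 0.33 for Ptprb (SE). After centring on the housekeeping mean the change of Tek was -0.02, and Tie1 was called lower at -0.90, while Ptprb kept its call. Without KO-labelled array 1 the call of Tie1 was lost.

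RefSeq start site windows were at hand for 22 of the 38 genes, 12 that rose and 10 that did not pass. The sequences below are the 250 bases before the start (GRCm38.p6, read 5′ to 3′ on the gene's strand) of 3 receptor genes that rose, of Flt4, which did not pass, and of Aqp1, which rose. They lie at chr5:75978456-75978705 (minus strand) for Kdr, chr5:147726012-147726261 (minus strand) for Flt1, chr4:94739039-94739288 (plus strand) for Tek, chr11:49609429-49609678 (plus strand) for Flt4 and chr6:55336049-55336298 (plus strand) for Aqp1. They are shown because members of the ETS family, to which the listed factors Erg and Fli1 belong, bind around the letters GGAA and keep many endothelial genes active. Capitals mark GGAA on either strand, and TTCC is GGAA on the other strand.
Kdr: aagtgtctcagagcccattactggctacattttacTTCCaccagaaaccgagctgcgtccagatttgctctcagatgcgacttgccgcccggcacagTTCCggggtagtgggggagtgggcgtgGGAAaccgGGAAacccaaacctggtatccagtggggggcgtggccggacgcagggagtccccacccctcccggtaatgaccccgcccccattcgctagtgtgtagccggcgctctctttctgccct
Flt1: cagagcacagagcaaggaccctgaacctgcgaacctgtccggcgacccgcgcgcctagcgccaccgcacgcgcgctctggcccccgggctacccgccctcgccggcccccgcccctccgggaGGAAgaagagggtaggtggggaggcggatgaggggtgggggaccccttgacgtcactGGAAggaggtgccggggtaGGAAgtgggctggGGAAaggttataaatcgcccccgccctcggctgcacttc
Tek: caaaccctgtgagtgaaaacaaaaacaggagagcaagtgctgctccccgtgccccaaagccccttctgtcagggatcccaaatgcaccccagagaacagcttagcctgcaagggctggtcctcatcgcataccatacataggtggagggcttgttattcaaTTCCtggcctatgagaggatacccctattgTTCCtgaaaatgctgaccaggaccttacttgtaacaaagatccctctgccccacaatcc
Flt4: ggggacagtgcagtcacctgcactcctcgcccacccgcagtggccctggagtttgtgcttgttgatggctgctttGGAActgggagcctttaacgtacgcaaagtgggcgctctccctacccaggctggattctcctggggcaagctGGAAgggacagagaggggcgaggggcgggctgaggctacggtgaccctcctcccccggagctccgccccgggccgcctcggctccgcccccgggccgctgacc
Aqp1: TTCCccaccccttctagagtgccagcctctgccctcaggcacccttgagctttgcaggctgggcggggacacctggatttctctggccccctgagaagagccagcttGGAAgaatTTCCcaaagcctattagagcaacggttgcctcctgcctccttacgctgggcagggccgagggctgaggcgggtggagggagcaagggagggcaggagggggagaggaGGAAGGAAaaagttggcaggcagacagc

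GGAA was found on either strand in 11 of the 12 genes that rose and in 10 of the 10 that did not pass, and in 94.2% of all 27025 genes in the table. Cldn5 was the gene that rose without a match. The longer form AGGAAG, which contains the core, was found in 7 of the 12 and in 5 of the 10, against 32.3% of all genes. CCGGAA, which also contains it, was found in 1 of the 12, in Kdr, and in 0 of the 10, against 13.6% of all genes. A gene with several windows was counted if any held a match. These matches describe letters in the windows and say nothing of binding in these mice.

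Of the 3 genes for G protein-coupled receptors and their partner, S1pr1 and Ramp2 rose and Calcrl did not pass. S1pr1, the receptor for sphingosine 1-phosphate that keeps endothelial junctions tight, read 9.16, 10.36 and 9.62 on the KO-labelled arrays, against 7.67, 7.70 and 7.49 on the WT-labelled arrays. Ramp2, which pairs with the calcitonin receptor-like receptor to form the adrenomedullin receptor, read 7.61, 7.94 and 7.68, against 7.09, 7.24 and 6.91 on the WT-labelled arrays. Calcrl, the gene of that receptor, read 7.02, 7.04 and 6.92, against 6.96, 6.99 and 7.03 on the WT-labelled arrays. The groups stood apart for S1pr1 and Ramp2 and overlapped for Calcrl, whose means were both 6.99. After centring on the housekeeping mean, Ramp2 turned to -0.73 and S1pr1 was 0.70 higher without passing.

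Of 6 measured transcription factor genes 1 rose and 0 fell, with a median change of 0.39. That share of 16.7% stands beside 10.7% of protein-coding genes called higher. Fli1, an ETS factor gene, read 8.52, 9.35 and 8.06 on the KO-labelled arrays, against 7.45, 7.5 and 7.14 on the WT-labelled arrays. Its change was 1.28 ± 0.33 (SE, adjusted p = 0.0463 in limma), or -0.11 after centring on the housekeeping mean, and the call was lost without KO-labelled array 1 and after quantile normalization. Erg, the ETS factor gene closely tied to endothelial identity, read 6.95, 7.06 and 6.68, against 6.70, 6.80 and 6.70 on the WT-labelled arrays, and the groups overlapped.

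The SOXF genes Sox17, Sox18 and Sox7, which act in arterial and lymphatic fate and in early vessels, had changes of 0.41, 0.37 and 0.58 without passing (adjusted p = 0.0768, 0.0967 and 0.106 in limma). Sox17 read 7.57, 8.0 and 7.88 on the KO-labelled arrays, against 7.45, 7.37 and 7.41 on the WT-labelled arrays, and Sox17 and Sox18 did not overlap between the groups. Sox18 passed after quantile normalization and after centring on the array median, and Sox17 and Sox7 passed without KO-labelled array 1. Tal1, a factor gene of blood and endothelial progenitors, read 6.78, 6.71 and 6.96, against 6.76, 6.72 and 6.86 on the WT-labelled arrays. Those Tal1 values interleaved.

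Genes for proteins that large-vessel endothelium secretes or uses to make nitric oxide did not pass. Vwf, which encodes von Willebrand factor of the endothelial storage granules, read 7.01, 7.07 and 6.98 on the KO-labelled arrays, against 7.09, 7.12 and 7.08 on the WT-labelled arrays. The KO-labelled values were lower without overlap, as in 44.9% of all probe sets, but by 0.08 on average (adjusted p = 0.544 in limma). Nos3, the endothelial nitric oxide synthase gene, had means of 7.01 ± 0.20 on the KO-labelled and 6.95 ± 0.03 on the WT-labelled arrays (SD), and the groups overlapped. Both genes read below the olfactory receptor medians on every WT-labelled array.

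Of 4 measured genes of the capillary wall 3 rose and 0 fell, with a median change of 2.12. Aqp1, the water channel of capillaries, read 10.40, 11.96 and 10.70 on the KO-labelled arrays, against 7.75, 8.07 and 6.99 on the WT-labelled arrays. Cav1, the main coat protein gene of caveolae, read 12.11, 12.86 and 11.52, against 9.45, 9.31 and 8.37 on the WT-labelled arrays. Cav2, whose protein is carried to the surface by caveolin 1, read 8.16, 9.09 and 8.11, against 7.5, 7.36 and 7.15 on the WT-labelled arrays. All 3 stood apart, with signal changes of 3.42 ± 0.48 for Aqp1, 3.12 ± 0.43 for Cav1 and 1.12 ± 0.29 for Cav2 (SE). The call of Cav2 was lost after quantile normalization, and Cav2 turned to -0.27 after centring on the housekeeping mean. Caveolins are abundant in adipocytes as well, so that these probe sets do not read endothelium alone. Plvap, which forms the diaphragm of fenestrae and caveolae, read 5.59, 5.91 and 5.78, against 5.36, 5.72 and 5.52 on the WT-labelled arrays, and the groups overlapped.

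**Figure D2:**
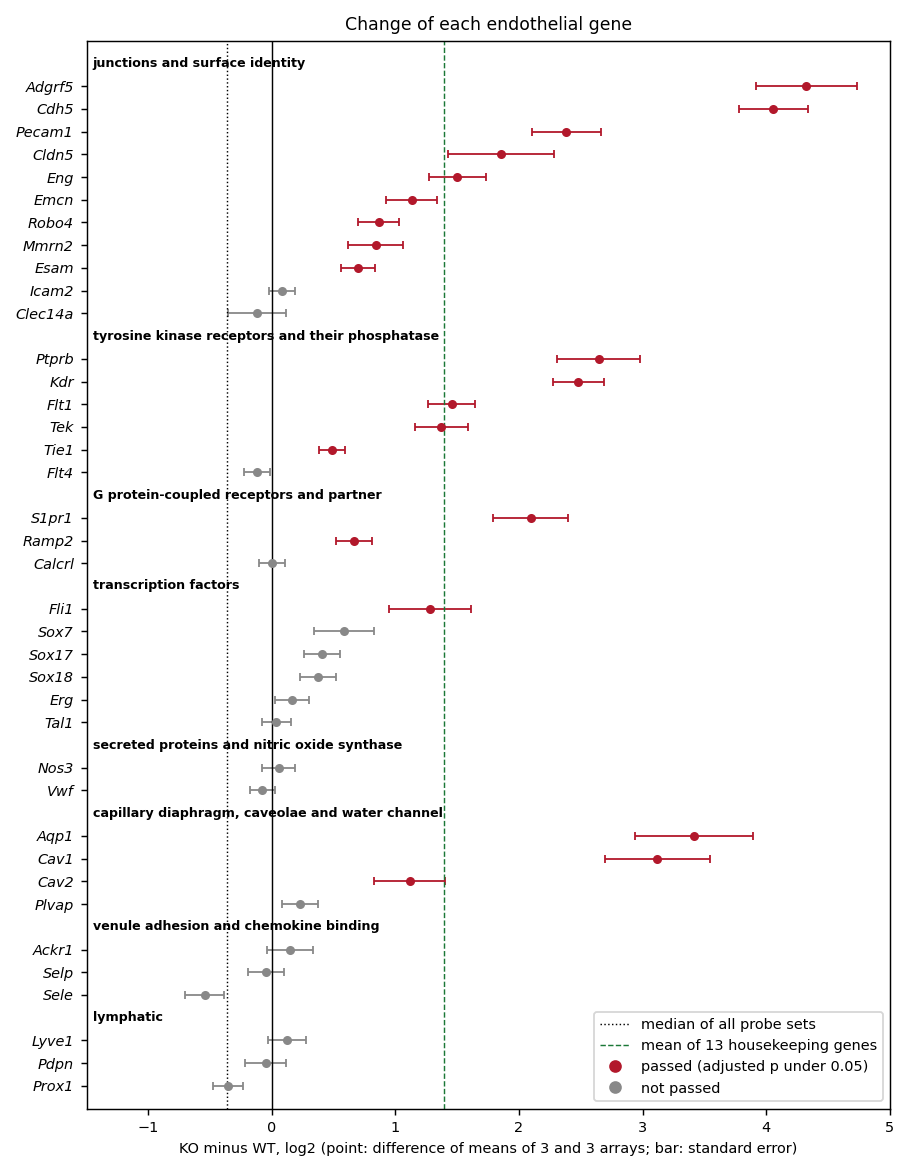
Change of each measured endothelial gene, KO minus WT on the log2 scale, with its standard error. Red points passed at an adjusted p under 0.05, the dotted line is the median of all probe sets (-0.37) and the dashed line the mean of 13 housekeeping genes (1.39). Of the 20 red points, 11 lie right of the dashed line.

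The venule genes gave no call. Sele encodes E-selectin, which inflamed venules use to catch leukocytes. It read 6.21, 5.76 and 6.14 on the KO-labelled arrays, against 6.61, 6.46 and 6.67 on the WT-labelled arrays. The KO-labelled values were all lower, as in 44.9% of all probe sets and 41.0% of protein-coding genes. The change of -0.54 ± 0.16 (SE) just missed the threshold (adjusted p = 0.0536 in limma). Against the median probe set the change of Sele was -0.18. Selp, the P-selectin gene shared by endothelium and platelets, and Ackr1, the atypical chemokine receptor gene of venules, overlapped between the groups, with changes of -0.05 ± 0.15 and 0.15 ± 0.18 (SE).

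The lymphatic genes gave no call either. Prox1, the factor gene that sets lymphatic identity, read 6.18, 5.95 and 6.12 on the KO-labelled arrays, against 6.40, 6.55 and 6.36 on the WT-labelled arrays. This change of -0.35 ± 0.12 (SE) did not pass (adjusted p = 0.073 in limma) and lay 0.01 above the median probe set. Lyve1, a hyaluronan receptor gene shared by lymphatic endothelium and some macrophages, read 7.22, 7.14 and 7.48, against 7.22, 6.95 and 7.30 on the WT-labelled arrays. Pdpn, the podoplanin gene shared by lymphatic endothelium and fibroblasts, read 7.59, 7.04 and 7.34, against 7.46, 7.37 and 7.29 on the WT-labelled arrays. Lyve1 and Pdpn overlapped between the groups.

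Other genes of the vessel wall were read from lists drawn up by vessel type. Of 13 measured genes of fat capillaries and their fatty acid handling 9 rose and 0 fell, with a median change of 2.33. Gpihbp1, which anchors lipoprotein lipase to the capillary wall, read 9.73, 10.99 and 10.29 on the KO-labelled arrays, against 8.67, 8.59 and 8.08 on the WT-labelled arrays. Sparcl1, Car4 and Cd300lg, all known from capillary endothelium, rose 12.7-fold, 7.21-fold and 5.62-fold. Cd36, Lpl, Fabp4 and Fabp5 on this list are also adipocyte genes. The capillary factor genes Meox1, Meox2 and Tcf15 did not pass, at -0.26, 0.06 and 0.23.

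Of 27 measured other endothelial genes 4 rose and 0 fell, with a median change of 0.09. The adhesion receptor gene Adgrl4 read 9.74, 11.12 and 10.57 on the KO-labelled arrays, against 7.46, 7.28 and 7.30 on the WT-labelled arrays, and the others that rose were Palmd, Shank3 and Ushbp1, by 1.04, 0.68 and 0.50. Of 14 arterial genes 2 rose, the Notch ligand gene Jag1 by 0.70 and Notch1 by 0.58, and 0 fell. Of 8 venous genes 1 rose, the venous fate factor gene Nr2f2, by 0.91, and 0 fell. All these genes that rose except Palmd had a WT-labelled mean below the highest olfactory receptor median, 7.61. Their rises thus start from signals not shown to be above background. Median changes of the arterial and venous lists were 0.13 and 0.11. The shares that rose, 14.8% of the other endothelial, 14.3% of the arterial and 12.5% of the venous genes, were near the 10.7% of protein-coding genes called higher. Of 7 further lymphatic genes 1 rose (14.3%), the factor gene Maf, by 1.42, and 0 fell, with a median of -0.28. Maf is also a macrophage gene. After centring on the housekeeping mean the capillary list kept a positive median, 0.94, with 7 genes called higher and 3 called lower. So did the adipocyte markers, with a median of 1.06, 8 genes called higher and 1 called lower. The medians of the other endothelial, arterial, venous and lymphatic lists were -1.30, -1.26, -1.29 and -1.67. In these lists 22, 12, 7 and 6 genes were called lower, where 60874 of all 65956 probe sets were.

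Of 17 further endothelial transcription factor genes 5 rose (29.4%) and 0 fell, with a median change of 0.12. Epas1, the hypoxia-inducible factor gene abundant in endothelium and adipocytes, read 9.67, 11.30 and 9.88 on the KO-labelled arrays, against 7.44, 7.40 and 6.61 on the WT-labelled arrays. Foxo1, Tcf4, Ets1 and Klf4 rose by 1.68, 1.43, 1.02 and 0.57, of which Ets1 and Klf4 lie under the housekeeping mean change of 1.39, and after centring on that mean 1 of the 5 calls was left. Only Tcf4 among the 5 had a WT-labelled mean above the highest olfactory receptor median, 7.61. Of 14 ligand genes for the receptors above 2 rose and 0 fell, with a median of -0.17. That share of 14.3% is near the 10.7% of protein-coding genes called higher. Vegfa, the ligand of Kdr and Flt1, read 10.91, 12.28 and 11.44, against 9.93, 9.26 and 8.92 on the WT-labelled arrays, a 4.51-fold rise, and Adm, the adrenomedullin gene, rose by 0.67, with neither called after centring on the housekeeping mean. The WT-labelled mean of Adm, 6.28, also lay below that olfactory receptor median. The lymphatic ligand gene Vegfc was -0.32 and the angiopoietin genes Angpt1 and Angpt2 were 0.25 and -0.14 without passing.

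**Figure D3:**
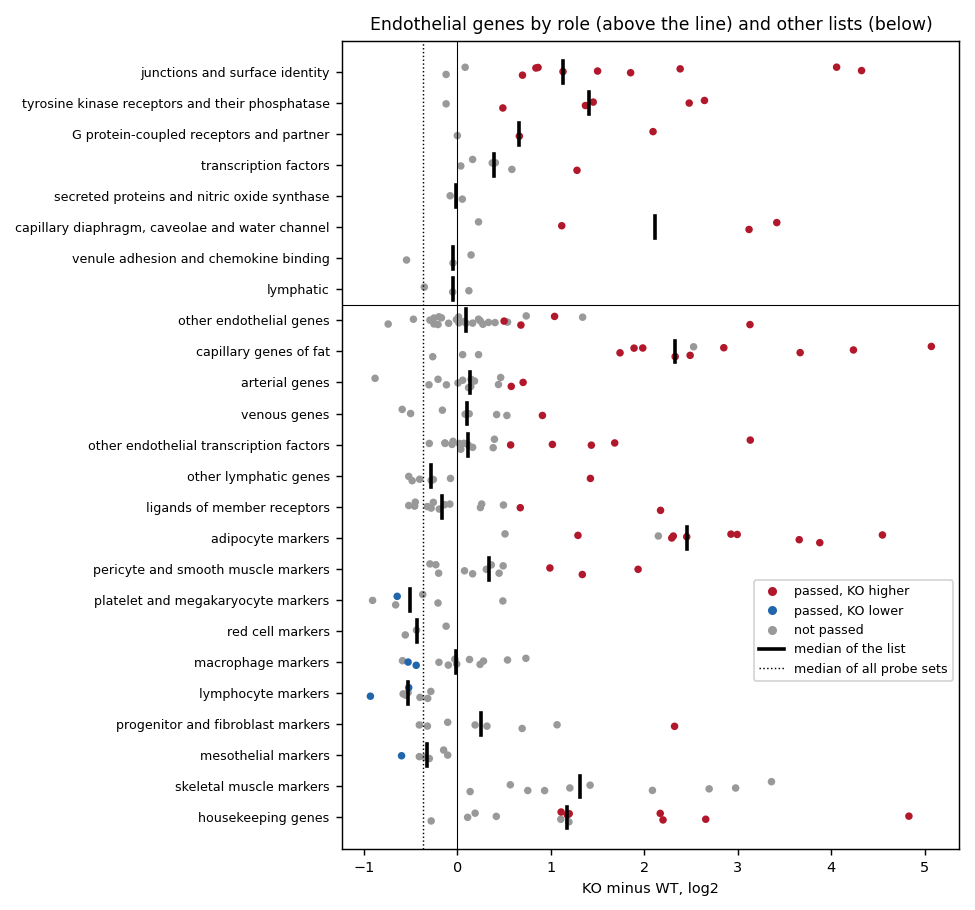
Changes, KO minus WT on the log2 scale, of the endothelial genes by role (above the line) and of the other lists (below it). Each point is a gene, coloured by whether it passed and in which direction, and the black bar is the median of its list. The capillary wall (median 2.12), the capillary genes of fat (2.33) and the adipocyte markers (2.45) lie furthest right.

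Markers of other cells were read beside the endothelial genes. Of 11 adipocyte markers 9 rose and 0 fell, with a median change of 2.45, and their summed log2 signal was 118 to 132 on the KO-labelled and 86.9 to 101 on the WT-labelled arrays. Adipoq read 12.57 to 13.01 on the KO-labelled and 8.76 to 10.97 on the WT-labelled arrays. Of 12 pericyte and smooth muscle markers 3 rose and 0 fell, the pericyte genes Rgs5 and Abcc9 by 1.93 and 0.99 and Acta2 by 1.34, with summed signals of 90.5 to 94.2 on the KO-labelled and 85.5 to 87.4 on the WT-labelled arrays. The part of adipocytes and pericytes, and of what moved the housekeeping genes, in the endothelial changes was not tested.

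No listed blood cell marker was called higher. Of 6 platelet markers 0 rose and 1 fell, and of 3 red cell markers 0 rose and 0 fell. Of 12 macrophage markers 0 rose and 2 fell, and of 8 lymphocyte markers 0 rose and 2 fell. Over all probe sets 5.32% were called higher and 15.6% lower, so lists this short could hold 0 calls higher without differing from the rest. In 2 of the 12 macrophage markers all KO-labelled values lay above the WT-labelled ones, and in 3 below. The median changes of these lists, in that order, were -0.51, -0.44, -0.02 and -0.52, beside -0.37 for all probe sets. None of the calls lower was left after quantile normalization or centring on the array median. Of 8 measured progenitor and fibroblast markers the decorin gene Dcn rose, by 2.32, and 0 fell. That share of 12.5% is near the 10.7% of protein-coding genes called higher. Of 6 mesothelial markers 0 rose and 1 fell.

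Skeletal muscle markers differed between the KO-labelled arrays. Of 10 muscle markers 0 passed in either direction, and their summed signal was 86.7, 102 and 68.8 on the KO-labelled arrays, against 69.5 to 70.0 on the WT-labelled arrays. KO-labelled arrays 1 and 2 were high and array 3 was not above the WT-labelled range. On array 3, 27 of the 38 endothelial genes (71.1%) read above all 3 WT-labelled values, where 16.9% of all probe sets and 29.5% of protein-coding genes with 1 symbol did. All 20 genes that rose are among the 27 of necessity, as their KO-labelled values all lay above the WT-labelled ones and their calls had used array 3. The rest are 7 of the 18 that did not pass (38.9%), a share nearer to the 29.5% of protein-coding genes. The part of muscle RNA in the endothelial changes was not tested. Arrays 1 and 2 were also left out together, a setting chosen after the data were seen. The median change of the 38 genes was then 0.56, beside -0.27 over all probe sets.

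Between the KO-labelled arrays, array 2 read highest in 29 of the 38 genes and in 19 of the 20 that rose, Tie1 being the exception. Between the WT-labelled arrays, array 3 read lowest in 15 of the 20. Over the 38 genes the median excess above the WT-labelled mean was 0.54, 0.90 and 0.56 on KO-labelled arrays 1, 2 and 3. For the adipocyte markers it was 2.23, 3.17 and 2.15, and for the housekeeping genes 0.78, 1.51 and 1.09. Array 2 thus read highest in each of these lists. Without it, limma called 17 of the 38 genes higher and 0 lower, and the calls of Cldn5, Mmrn2 and Ramp2 were lost.

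**Figure D4:**
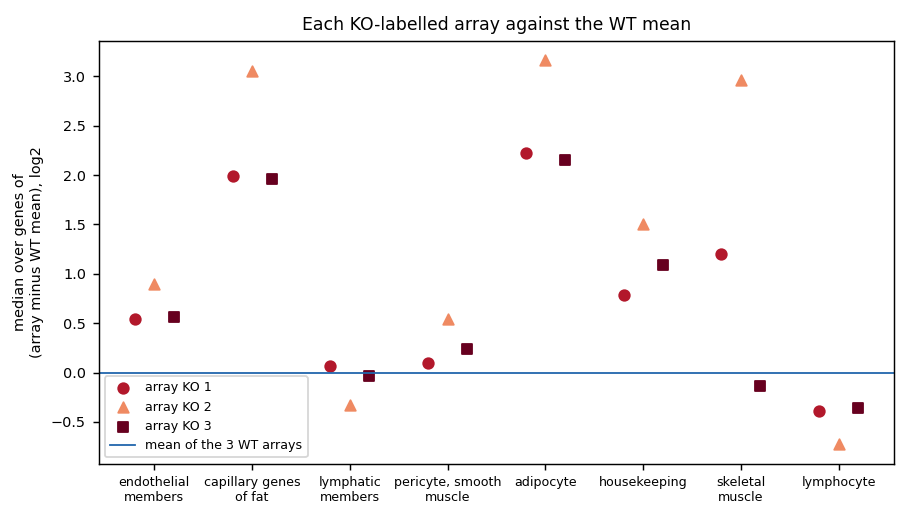
Each KO-labelled array against the mean of the WT-labelled arrays (line at 0), as the median over the genes of a list of the log2 difference. The endothelial genes read above 0 on all 3 arrays (0.54, 0.90 and 0.56), while the skeletal muscle markers read above it on arrays 1 and 2 only (1.20, 2.97 and -0.14).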

How the data were processed

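The deposited table holds log2 signals of 65956 probe sets on 6 arrays. Per the labels' protocols, biotin labelling of total RNA used the GeneChip WT Pico kit. Transcriptome Analysis Console is the tool in the submitters' processing notes, with no version. How background was corrected, how arrays were normalized and which genome build was used: not given in the sources used here. Deposited values ran from 2.81 to 19.93, and array medians from 6.47 to 7.02, so the arrays had not been brought to one distribution. Scan dates were not available, so no batch could be examined.

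A symbol repeated in an annotation cell counted once, and symbols were updated through RefSeq (GRCm38.p6). This gave 31258 probe sets with 1 symbol, 1492 with several and 33206 with none. For a gene with several probe sets, the one brightest on average was used. Arrays were compared with limma 3.58.1 in R 4.3.3 (lmFit and eBayes without trend, genotype as the only term, Benjamini-Hochberg over all probe sets, threshold 0.05), after tests on simulated data. The genes and lists were chosen with earlier results of these data known. All measured listed genes could be named, with every array's value for the called genes and for Vwf, Plvap, Lyve1, Prox1 and Tal1, and of the other lists up to 4 genes by smallest p. Others named were chosen after their values were seen. The number of arrays limits the precision.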

Additional observations from a re-analysis of the deposited data

How the results depend on the processing

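The 20 calls higher and 0 lower among 38 genes became 18 and 0 after quantile normalization, where those of Cav2, Fli1 and Mmrn2 were lost and Sox18 was gained, and 21 and 0 after centring on the array median. Centring on the housekeeping mean gave 7 and 18, where 498 of all 65956 probe sets were called higher and 60874 lower. With trend in the variance prior the counts were 19 and 1, with trend and robust 20 and 1, with array weights 21 and 2, among probe sets with 1 symbol only 20 and 1, at an adjusted p under 0.1 22 and 2, and under 0.01 0 and 0. Sele was lower in each of these with a call lower, and Prox1 where there were 2. Leaving out single arrays gave 0 to 18 calls higher and a median change of 0.54 to 0.75, and leaving out KO-labelled arrays 1 and 2 gave 0. The median change of 0.62 was 0.92 after quantile normalization, 0.95 after centring on the array median, 1.12 among the 28 genes with brighter probe sets and -0.77 after centring on the housekeeping mean.

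Only that last centring reversed called genes: Cav2 -0.27, Emcn -0.26, Esam -0.69, Fli1 -0.11, Mmrn2 -0.55, Ramp2 -0.73, Robo4 -0.53, Tek -0.0205 and Tie1 -0.90. Of these, Tie1 was then called lower. The same centring turned Ackr1 (-1.24), Erg (-1.23), Icam2 (-1.31), Lyve1 (-1.27), Nos3 (-1.34), Plvap (-1.16), Sox17 (-0.98), Sox18 (-1.02) and Tal1 (-1.35), all called lower there, and Sox7 (-0.81), which did not pass. Most probe sets, 60874 of 65956, were called lower there too. The 13 housekeeping genes changed by -0.28 to 4.83, the highest being B2m, and their median change of 1.18 lay below their mean of 1.39. Fli1 and Tek, changed by 1.28 and 1.37, lie between that median and that mean. Their sign here thus depends on which of them is subtracted. Centring without B2m was not run.

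Replicate numbers are shared between the groups, but nothing says that they mark a shared litter or day. Deviations of same-numbered arrays correlated at 0.00, 0.20 and 0.14. With the replicate block 17 genes were called higher and 0 lower, the calls of Cav2, Mmrn2 and Tie1 being lost. Without detection calls, signals near 7 cannot be told from background.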

Other observations

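Inguinal fat encloses a lymph node, whose high endothelial venules carry the sialomucin gene Glycam1, the mucosal addressin gene Madcam1 and the sulfotransferase gene Chst4. Glycam1 read 7.51, 7.05 and 7.72 on the KO-labelled arrays, against 7.90, 8.09 and 8.06 on the WT-labelled arrays. Every KO-labelled value was lower, as in 44.9% of all probe sets and 41.0% of protein-coding genes. The change of -0.59 did not pass (adjusted p = 0.0666 in limma). Madcam1 and Chst4 overlapped between the groups, with changes of -0.16 and -0.50. The B cell genes Ms4a1 and Cd79a fell by 0.93 and 0.52 on the log2 scale, where the median probe set changed by -0.37 and the median olfactory receptor gene by -0.82. They read 5.99 and 6.57 on average on the KO-labelled arrays, against 6.92 and 7.09 on the WT-labelled arrays, below the WT-labelled medians of the olfactory receptor genes, and these calls were lost after quantile normalization.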
